A study of Mus musculus with 24 samples.

Results

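The genes followed here are 41 interferon-induced genes, taken by gene symbol from the 54232 mouse genes in the count tables. They comprise 19 antiviral genes of the kind induced by type I interferon, 8 GTPases induced by interferon gamma, 4 nucleic acid sensors, 4 transcription factors, 2 chemokines, 3 antigen-processing genes and the ADP-ribosyltransferase Parp14. All 41 symbols were found, and all 41 passed the filter on low counts, which kept 18978 genes for testing.

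Gene counts came from 24 libraries of dorsal wound tissue from male C57BLKS/J Lepr (db/db) mice, leptin receptor mutants that are obese and diabetic. Each mouse was 16 weeks old when 6 mm full-thickness wounds were made, and 17.5 weeks at collection. An alginate bandage went on at once and was replaced on day 3, and wounds were collected on day 10. The bandage carried medium conditioned by primary macrophages polarized to M0 (CM0, 4 libraries), M1 (CM1, 4), M2a (CMA, 5) or M2c (CMC, 5), and a control bandage was used in the Ctrl group (6 libraries). All 5 groups are diabetic and wounded. The labels do not give the stimuli used on the macrophages, and libraries are numbered here within each group only to name them. The design text counts the libraries as mice, but does not say whether a mouse gave more than 1 wound, so p-values measure the spread between these libraries. Each library held between 7267879 and 11985292 counts, of which the 41 genes took between 4492 and 8763. Wound tissue markers were all detected, with 6 of 6 keratinocyte, 5 of 5 fibroblast and 6 of 6 macrophage markers above 0 in every library.

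Interferons act on neighbouring cells through surface receptors. Type I interferons signal through Ifnar1 and Ifnar2 to a complex that holds STAT2 and IRF9 and binds interferon-stimulated response elements (ISRE) and switches on antiviral genes, while interferon gamma signals through Ifngr1 and Ifngr2 to gamma-activated sites (GAS). IRF1, itself induced through a GAS, then drives many interferon gamma genes, among them the guanylate-binding proteins (Gbp) and immunity-related GTPases (Irgm1, Irgm2, Igtp, Iigp1) that act on membranes around intracellular pathogens. Many of the genes respond to both kinds of interferon, so the classes overlap. In mouse skin, injury itself is known to start a brief type I interferon response from plasmacytoid dendritic cells.

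Promoter sequences are shown for 6 of the genes because ISRE and GAS elements are where the factors of the type I and gamma pathways are known to bind. RefSeq promoters (GRCm38.p6) were matched for 32 of the 41 genes, and the 250 bases before each start were searched on both strands for an ISRE-type motif, made of GAAA, 2 bases of any kind and GAAA (TTTC, 2 bases and TTTC on the other strand), and a GAS-type motif, TTCNNNGAA. The last 150 of these bases are printed 5′ to 3′ in the gene's direction, with motif bases in capitals.
Isg15 (chr4:156200819-156200968, minus strand): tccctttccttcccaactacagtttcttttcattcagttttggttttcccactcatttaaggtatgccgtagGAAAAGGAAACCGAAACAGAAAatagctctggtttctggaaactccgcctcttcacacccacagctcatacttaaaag
Ifit1 (chr19:34640739-34640888, plus strand): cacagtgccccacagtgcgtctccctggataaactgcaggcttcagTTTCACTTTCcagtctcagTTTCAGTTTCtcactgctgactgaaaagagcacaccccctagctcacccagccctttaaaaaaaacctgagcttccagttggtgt
Igtp (chr11:58199406-58199555, plus strand): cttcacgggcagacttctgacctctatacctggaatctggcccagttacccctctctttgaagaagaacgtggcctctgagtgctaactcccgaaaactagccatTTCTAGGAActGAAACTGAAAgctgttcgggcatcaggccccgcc
Irgm2 (chr11:58214827-58214976, plus strand): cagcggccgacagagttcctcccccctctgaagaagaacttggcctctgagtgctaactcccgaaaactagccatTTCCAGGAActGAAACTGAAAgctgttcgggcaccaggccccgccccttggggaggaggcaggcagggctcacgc
Gbp2 (chr3:142620513-142620662, plus strand): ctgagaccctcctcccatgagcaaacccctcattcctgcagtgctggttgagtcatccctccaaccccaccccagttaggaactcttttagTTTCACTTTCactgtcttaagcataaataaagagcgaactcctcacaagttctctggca
Irf1 (chr11:53769864-53770013, plus strand): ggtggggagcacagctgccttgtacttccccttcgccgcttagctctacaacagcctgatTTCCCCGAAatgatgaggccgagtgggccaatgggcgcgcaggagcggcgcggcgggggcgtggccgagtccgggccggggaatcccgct

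Isg15 carried 3 overlapping ISRE-type matches and Ifit1 carried 2 separate ones, with no GAS-type match in either window. Igtp and Irgm2 each had a GAS-type match followed after 2 bases by an ISRE-type match, and the sequence around them is nearly the same in these neighbouring paralogs. Gbp2 had an ISRE-type match only, and Irf1 had a GAS-type match, 90 bases before its start, and no ISRE-type match. Among GTPases with a promoter, 7 of 7 held an ISRE-type and 4 of 7 a GAS-type match, and among type I-type genes 8 of 14 held an ISRE-type and 3 of 14 a GAS-type match. Over all members 53.1% held an ISRE-type match and 28.1% a GAS-type match, against 3.46% and 8.13% of 27025 genes with a promoter of the same length. A match is a description of letters, not a binding site.

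Levels of the members are given as CPM, counts scaled to library size after TMM adjustment. Together they made up 0.0664% of all counts. Every member had counts in every library, the lowest being 3 counts of Ifi44, an antiviral protein gene, in library CM0 4. Per kilobase of exon, the most abundant was Bst2, which encodes tetherin, at 21.2 CPM per kb. It was followed by Irf1 and the peptide transporter gene Tap1 at 10.2 CPM per kb each, Parp14 at 8.84 and Stat2 at 7.52 CPM per kb. At the other end, 4 members were under 1 CPM per kb, namely Mx2 (0.869), Gbp5 (0.791), Oas3 (0.579) and Ifi44 (0.191). The spread between libraries differed by class. For the type I-type genes the highest library was a median of 5.66-fold above the lowest, with a range from 1.91-fold for Bst2 to 10.1-fold for Ifi44. The same median was 2.26-fold for the GTPases, 1.86-fold for the factors, 2.03-fold for the sensors, 2.09-fold for the antigen-processing genes and 5.36-fold for the 2 chemokines.

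Library Ctrl 4 stood apart. It had the highest level of 23 of the 41 members, including 16 of the 19 type I-type genes, and it was above the median of the 24 libraries for 41 of 41. Its type I-type score, the mean log2 CPM of the 19 genes, was 3.90, against 2.36 to 2.89 in the other 5 Ctrl libraries, and the next highest of all libraries was CMA 3 at 3.24. Ctrl 2 had another profile. Its GTPase score of 4.27 was the second highest of the 24, next to 4.29 in CMC 4 and 4.26 in Ctrl 4, while its type I-type score of 2.36 was the lowest of the Ctrl libraries, and only 2 of the 19 genes were above their median over the 24 libraries. The type I-type score minus the GTPase score was therefore highest in Ctrl 4 (-0.35) and lowest in Ctrl 2 (-1.91), both in the same group. At the low end, CM0 4 held the lowest level of 16 members and CM0 2 of 10.

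**Figure D1:**
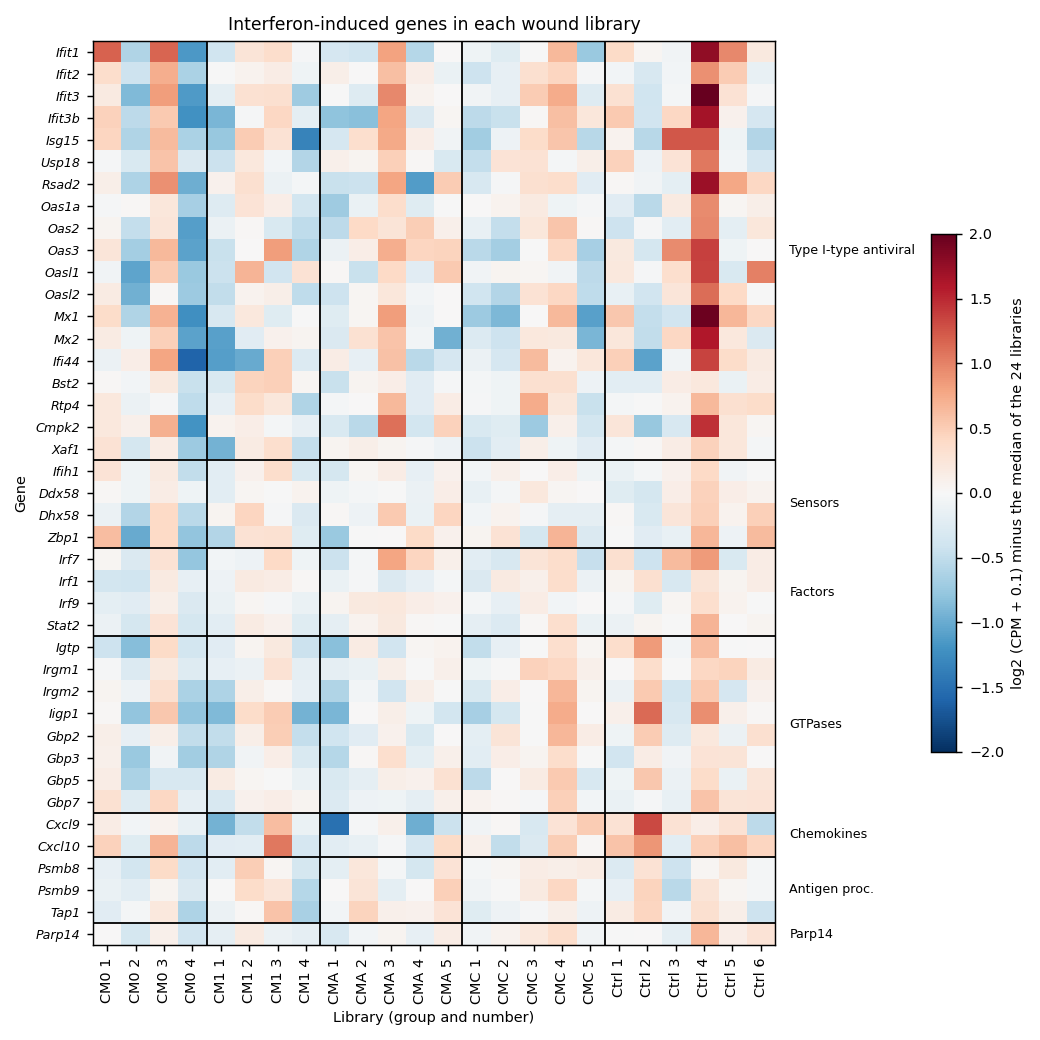
Level of each of the 41 genes (rows, by class) in each of the 24 libraries (columns, media left of Ctrl), as log2 (CPM + 0.1) minus the gene's median over libraries, with colours ending at 2 in either direction. Ctrl 4 is red in nearly all type I-type rows, CM0 4 is blue, and Ctrl 2 is red in the GTPases and in Cxcl9 but not in the type I-type rows.

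**Figure D2:**
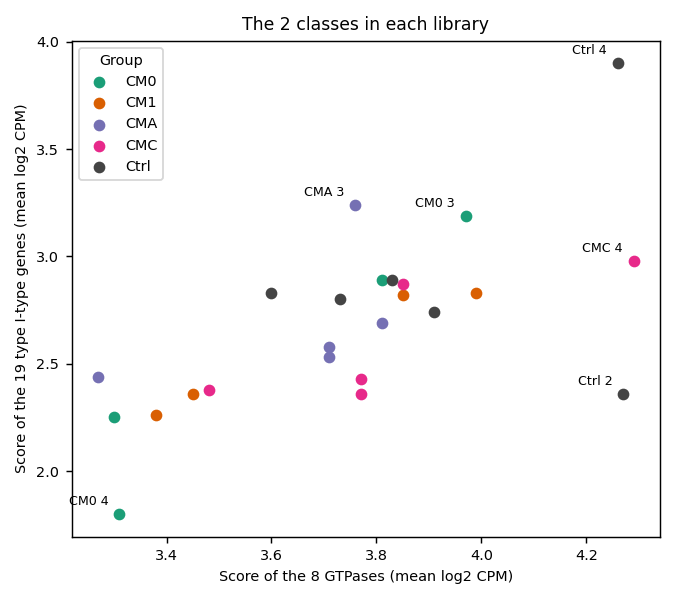
Type I-type score (vertical axis) against GTPase score (horizontal axis), both mean log2 CPM, with 1 point per library coloured by group. Ctrl 4 is highest on the vertical axis at 3.90, and Ctrl 2 combines a GTPase score of 4.27 with a type I-type score of 2.36.

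Markers of other cells also differed in these libraries, and their part in the interferon values was not tested. The 6 skeletal muscle markers summed to 7780 CPM in Ctrl 4, the highest of all libraries, with ranges of 1700 to 5700 CPM in CM0, 1390 to 2490 in CM1, 1020 to 2870 in CMA, 1300 to 3220 in CMC and 1630 to 7780 in Ctrl, and no muscle marker was at 0 in any library. Plasmacytoid dendritic cell markers, 4 of 6 tested, summed to 135 CPM in Ctrl 4, with ranges of 168 to 291 CPM in CM0, 166 to 273 in CM1, 161 to 293 in CMA, 166 to 265 in CMC and 135 to 254 in Ctrl. Most of that sum was Ly6d, which stratified epithelium also expresses, at 71.3 CPM in Ctrl 4, and Irf8, which macrophages also express, at 57.8 CPM. The more specific Siglech was 1.89 CPM in Ctrl 4, inside its range of 0.785 to 4.85 CPM over the media, and Irf8 was inside its range of 44.7 to 72.5 CPM. T cell markers, 4 of 6 tested, summed to 18.9 CPM in Ctrl 4 and 17.8 in Ctrl 2, inside the range of 10.2 to 21.3 CPM over the media. NK cell markers, 5 of 6 tested, summed to 10.7 CPM in Ctrl 2 (rank 2 of 24) and 9.18 in Ctrl 4 (rank 11). They were highest in CM0 3, at 15.0 CPM. B cell markers, 1 of 4 tested, summed to 3.04 CPM in Ctrl 2 (rank 1) and 2.03 in Ctrl 4 (rank 8). Neutrophil markers, 5 of 6 tested, were low in both, at 33.9 CPM in Ctrl 4 and 36.3 in Ctrl 2. Both values were below every CM1, CMA and CMC library. The media ranged from 25.0 to 447 CPM in CM0, 156 to 598 in CM1, 50.2 to 472 in CMA and 73.0 to 362 in CMC. Ctrl ranged from 33.9 to 282 CPM. The 6 keratinocyte markers were low in both, with sums of 5440 CPM for Ctrl 4 and 6920 CPM for Ctrl 2, and high in CM0 4, the library with the most members at their lowest, at 16600 CPM. CMA 3, next to Ctrl 4 in type I-type score, had the highest keratinocyte sum at 19100 CPM. The median keratinocyte sum was 11200 CPM for CM0, 10400 for CM1, 13300 for CMA and 8550 for CMC libraries, against 7550 CPM for Ctrl. Ctrl 2 ranked 3 of 24 in muscle markers at 4430 CPM, and Ctrl 4 ranked 3 of 24 in hair follicle markers, 3 of 6 tested, at 414 CPM.

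Against control bandages, most members had lower values in the media, and none passed the test against the spread between libraries. edgeR's quasi-likelihood test called 0 of the 41 members at an adjusted p of 0.05 in every comparison, and 0% of all genes tested. The mean of the 4 media was below Ctrl for 38 of 41 members, with a median log2 fold change of -0.21, whereas 52.9% of all genes tested were lower and their median was -0.01. At an unadjusted p under 0.05, 7 of the 41 were lower, against 5.2% of all genes tested lower at that p. The type I-type genes had a median of -0.43 and the GTPases -0.18. Without Ctrl 4 these medians were -0.15 for the type I-type genes and -0.15 for the GTPases, and -0.11 for all members. Ctrl 2 and Ctrl 4 were also left out together, a choice made after seeing the data. The medians were then -0.25 for the type I-type genes, -0.06 for the GTPases and -0.10 for all members. For 30 of 41 members, and 10 of the 19 type I-type genes, the 95% interval of this difference stayed within a 2-fold change either way. Over all genes tested it did so for 17521 of 18978, a larger share. Other tools found no member either, with 0 genes called by limma with voom and 1 by DESeq2, which was not a member.

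Taken 1 medium at a time, CM0 had the most members below Ctrl. The 4 comparisons share the same Ctrl libraries, so their values are not independent. In CM0 against Ctrl, 41 of 41 members were lower, beside 52.6% of all genes tested, and 7 were lower at an unadjusted p under 0.05, beside 2.78%. The median of the members was -0.32, that of the type I-type genes -0.36 and that of the GTPases -0.34. For 27 of 41 members the 95% interval stayed within 2-fold, beside 15914 of 18978 genes tested. Without Ctrl 4 the type I-type median was -0.12, without CM0 4 it was -0.17, and without CM0 3 it was -0.61. The median of all members was -0.13 without Ctrl 4 and -0.17 without CM0 4. The GTPase median stayed between -0.44 and -0.25 when any 1 library was left out, and was -0.19 with Ctrl 2 and Ctrl 4 both left out.

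In CM1 against Ctrl, 38 of 41 members were lower, beside 51.3% of all genes tested, and 0 were lower at an unadjusted p under 0.05, beside 3.68%. The median of the members was -0.24, with -0.45 for the type I-type genes and -0.23 for the GTPases. Without Ctrl 4 the members had -0.13 and the type I-type genes -0.21. The GTPase median was -0.36 without CM1 3, and -0.07 with Ctrl 2 and Ctrl 4 both left out. In CMA against Ctrl, 36 of 41 were lower, beside 53.3%, with 2 at an unadjusted p under 0.05, beside 2.66%. The median of the members was -0.21, and -0.05 without Ctrl 4. The type I-type median was -0.26 (-0.05 without Ctrl 4 and -0.41 without CMA 3). The GTPase median was -0.26, and -0.16 with Ctrl 2 and Ctrl 4 both left out.

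In CMC against Ctrl the classes had different medians. Of the 41 members, 35 were lower, beside 51.6% of all genes tested, with 2 at an unadjusted p under 0.05, beside 4.78%. The median of the members was -0.18, and -0.02 without Ctrl 4. The type I-type median was -0.39, and -0.14 without Ctrl 4. The GTPase median was -0.04, with 5 of 8 lower and 3 of 8 higher. Leaving out CMC 1, 2, 4 or 5 or Ctrl 1, 3, 4 or 5 moved it by over 1.5 times, between -0.128 without CMC 4 and 0.025 without Ctrl 4. The difference between the classes was not tested. DESeq2 called 1 gene for CM0, 1 for CM1, 0 for CMA and 4 for CMC against Ctrl and limma with voom called 0 in each, with no member among them. For no member did the libraries of a medium and of Ctrl fall apart without overlap, and over all genes tested that happened for 0.801% for CM0, 1.1% for CM1, 0.327% for CMA and 0.543% for CMC. In these bulk libraries, fewer cells of a type and less RNA per cell cannot be told apart.

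**Figure D3:**
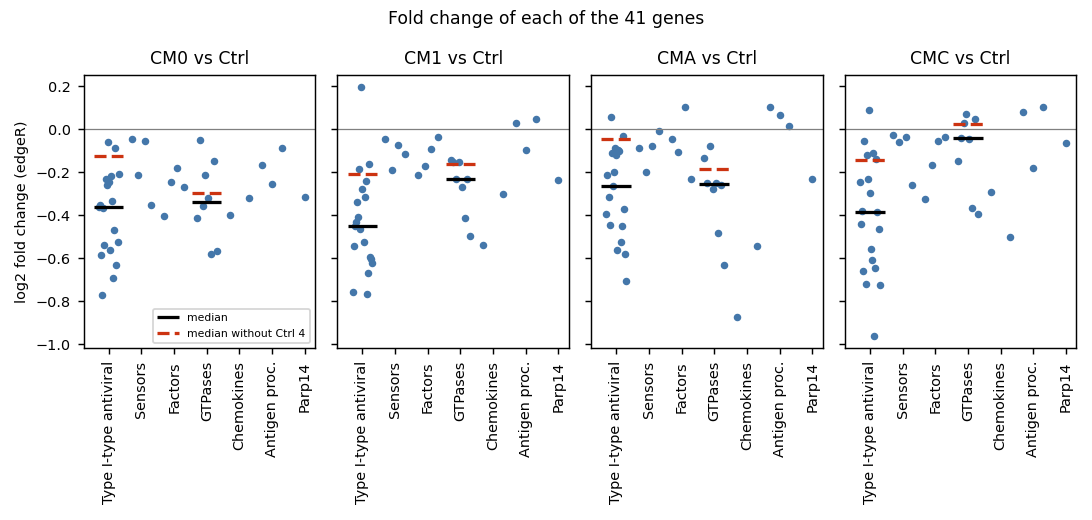
log2 fold change from edgeR of each of the 41 genes (points, by class along the horizontal axis) in each medium against Ctrl. Black lines mark the medians of the type I-type genes and the GTPases, and dashed red lines the same medians without Ctrl 4; the type I-type median in CM1 was -0.45 with that library and -0.21 without it.

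Among the type I-type genes, the values of Ifit3, whose human protein binds to and stabilizes IFIT1 on foreign RNA, show the pattern. Ifit3 measured 10.9, 5.15, 17.2 and 4.33 CPM in CM0 wounds, 8.43, 11.9, 12.1 and 5.83 CPM in CM1 wounds, 9.58, 7.99, 18.8, 10.1 and 9.67 CPM in CMA wounds, and 9.20, 8.61, 13.8, 16.1 and 8.03 CPM in CMC wounds, against 7.26, 10.6 and 38.4 CPM (lowest, median, highest) in Ctrl wounds. The groups overlapped, and only Ctrl 4, at 38.4 CPM, lay outside the range of the media. Ifit3b is a close paralog next to it on chromosome 19, so reads could be split between them. It ran from 1.28 to 5.40 CPM over the media and from 2.34 to 9.99 CPM in Ctrl.

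Mx1 encodes a GTPase that blocks influenza and related viruses, and in many laboratory mouse strains its gene is defective. Mx1 measured 7.05, 3.53, 8.82 and 2.26 CPM in CM0 wounds, 4.33, 6.25, 4.57 and 5.38 CPM in CM1 wounds, 4.55, 5.57, 9.79, 5.05 and 5.45 CPM in CMA wounds, and 3.25, 2.87, 5.47, 8.58 and 2.50 CPM in CMC wounds, against 3.86, 7.58 and 21.3 CPM in Ctrl wounds. Its log2 fold change was -0.96 in CMC (SE 0.42, edgeR adjusted p = 0.575), with 4 of 5 CMC libraries below the Ctrl median, and -0.50 without Ctrl 4. For the mean of the media it was -0.74 (SE 0.31, edgeR adjusted p = 0.478), with 15 of 18 libraries below the Ctrl median, and -0.28 without Ctrl 4. Mx2, its paralog, had -0.67 in CM1 (SE 0.39, edgeR adjusted p = 0.719), and -0.28 without Ctrl 4.

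Oasl1, a 2′-5′-oligoadenylate synthetase-like protein that restrains Irf7 translation in mice, was also highest in Ctrl 4. Oasl1 measured 4.30, 2.12, 6.43 and 2.65 CPM in CM0 wounds, 3.30, 7.23, 3.42 and 5.49 CPM in CM1 wounds, 4.55, 3.27, 5.97, 3.85 and 6.48 CPM in CMA wounds, and 4.26, 4.68, 4.65, 4.29 and 3.11 CPM in CMC wounds, against 3.64, 5.46 and 11.6 CPM in Ctrl wounds. All 5 CMC libraries were below the Ctrl median, and the log2 fold changes were -0.77 in CM0 (SE 0.33, edgeR adjusted p = 0.946) and -0.66 in CMC (SE 0.31, edgeR adjusted p = 0.578; -0.44 without Ctrl 4). Its relative Oasl2 had -0.59 in CM0 (SE 0.28, edgeR adjusted p = 0.946), and -0.35 without Ctrl 4.

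Isg15 encodes a ubiquitin-like modifier, and Usp18 the protease that removes it and also dampens the type I receptor. Isg15 measured 4.03, 1.92, 4.67 and 1.87 CPM in CM0 wounds, 1.71, 4.27, 3.63 and 1.12 CPM in CM1 wounds, 2.33, 3.75, 5.07, 3.25 and 2.82 CPM in CMA wounds, and 1.79, 2.76, 3.84, 4.41 and 1.99 CPM in CMC wounds, against 1.94, 2.96 and 7.16 CPM in Ctrl wounds. Ctrl 3 and Ctrl 4 shared the top value, and the groups overlapped. Usp18 had a log2 fold change of -0.46 in CM1 (SE 0.25, edgeR adjusted p = 0.717), with 3 of 4 libraries below the Ctrl median, and -0.25 without Ctrl 4. In CMA the smallest p-values of the class were those of Ifit1, an RNA-binding antiviral protein, and Rsad2, which encodes viperin. Ifit1 was at -0.71 (SE 0.41, edgeR adjusted p = 0.759; -0.36 without Ctrl 4) and Rsad2 at -0.56 (SE 0.37, edgeR adjusted p = 0.789; -0.19 without Ctrl 4).

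The remaining type I-type genes followed the same libraries to different degrees. Ifit2, Oas1a, Oas2, Oas3, Ifi44, Cmpk2 (a mitochondrial nucleotide kinase) and Xaf1 had their highest level in Ctrl 4. Rtp4 was highest in CMC 3 at 12.1 CPM, next to 11.4 CPM in CMA 3 and 11.3 CPM in Ctrl 4. Bst2 was highest in CM1 3 at 26.0 CPM, above 21.7 CPM in Ctrl 4, and was the only type I-type gene with a positive log2 fold change in CM1 against Ctrl, at 0.20.

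**Figure D4:**
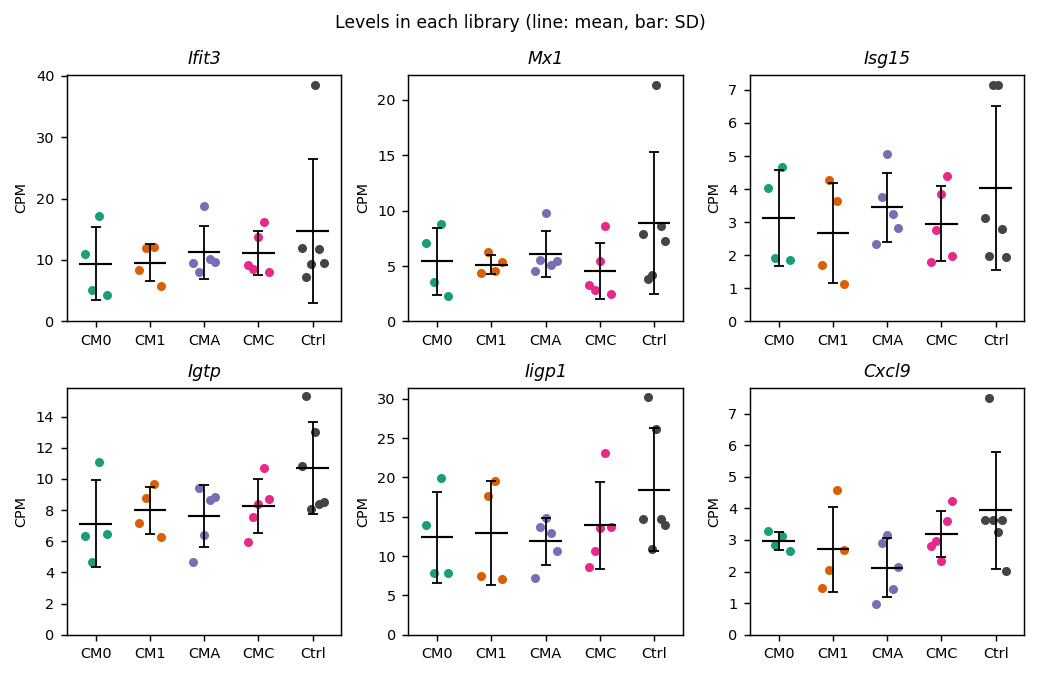
CPM of 3 type I-type genes (Ifit3, Mx1, Isg15), 2 GTPases (Igtp, Iigp1) and the chemokine gene Cxcl9 in each library, media left of Ctrl, with points for libraries, lines for group means and bars for SD. The highest Ctrl point is Ctrl 4 for Ifit3 (38.4 CPM) and Mx1 (21.3 CPM), and Ctrl 2 for Igtp (15.3 CPM), Iigp1 (30.2 CPM) and Cxcl9 (7.49 CPM).

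The sensors were steadier. Ifih1 (MDA5) and Ddx58 (RIG-I) detect viral RNA, and averaged between 31.7 and 34.8 CPM in every medium. Ifih1 averaged 32.6 ± 7.37 CPM for CM0, 32.6 ± 6.94 for CM1, 31.7 ± 4.40 for CMA and 33.1 ± 2.15 for CMC, against 33.7 ± 4.85 CPM in Ctrl (SD, n = 4, 4, 5, 5 and 6). Dhx58 (LGP2), which modulates the other RNA sensors, had a log2 fold change of -0.26 in CMC (SE 0.18, edgeR adjusted p = 0.711), with 5 of 5 libraries below the Ctrl median. Zbp1, a sensor of Z-form nucleic acid, ran from 3.94 CPM in CM0 2 to 13 CPM in CMC 4. The class medians were -0.13 for CM0, -0.10 for CM1, -0.08 for CMA and -0.05 for CMC against Ctrl.

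Among the factors, the highest libraries differed between Irf7 and Irf1. Irf7, the factor that amplifies type I interferon production, measured 11.5, 9.09, 13.7 and 6.49 CPM in CM0 wounds, 10.7, 10.4, 14.8 and 10.5 CPM in CM1 wounds, 8.23, 10.8, 19.4, 15.1 and 11.9 CPM in CMA wounds, and 9.65, 8.93, 13.4, 14.2 and 8.03 CPM in CMC wounds, against 8.31, 13.1 and 20.3 CPM in Ctrl wounds. Its 3 highest libraries were Ctrl 4, CMA 3 and Ctrl 3, and its lowest was CM0 4. Irf1 measured 31.4, 30.9, 46.2 and 36.3 CPM in CM0 wounds, 37.7, 45.9, 45.1 and 41.2 CPM in CM1 wounds, 36.9, 40.1, 33.3, 36.1 and 39.6 CPM in CMA wounds, and 33.1, 46.3, 43.6, 52.0 and 37.6 CPM in CMC wounds, against 32.6, 43.8 and 50.8 CPM in Ctrl wounds. Its highest libraries were CMC 4 at 52.0 and Ctrl 2 at 50.8 CPM. Its log2 fold change was -0.27 in CM0 (SE 0.13, edgeR adjusted p = 0.946), with 3 of 4 libraries below the Ctrl median. That value was -0.41 without CM0 3, -0.21 without CM0 2 and -0.17 with Ctrl 2 and Ctrl 4 both left out. Stat2 and Irf9, partners in the type I complex, were both highest in Ctrl 4, at 70.8 and 45 CPM. Irf9 shares 123 exon bases with Rnf31 on the same strand, and Irf7 shares 45 with Phrf1 on the opposite strand, so reads over these bases cannot be assigned to 1 gene with certainty.

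Of the GTPases, Igtp (Irgm3) had the smallest p-value for the mean of the media. Igtp measured 6.31, 4.64, 11.1 and 6.49 CPM in CM0 wounds, 7.18, 8.80, 9.65 and 6.27 CPM in CM1 wounds, 4.67, 9.44, 6.42, 8.66 and 8.83 CPM in CMA wounds, and 5.95, 7.55, 8.38, 10.7 and 8.72 CPM in CMC wounds, against 8.09, 9.67 and 15.3 CPM in Ctrl wounds. For the mean of the media, 16 of 18 libraries were below the Ctrl median, and the log2 fold change was -0.46 (SE 0.17, edgeR adjusted p = 0.443). Each medium had its own value, -0.58 in CM0 (SE 0.24, edgeR adjusted p = 0.946), -0.41 in CM1 (adjusted p = 0.719), -0.48 in CMA (adjusted p = 0.733) and -0.37 in CMC (adjusted p = 0.664). With Ctrl 2 and Ctrl 4 both left out, a choice made after seeing the data, the value for the mean of the media was -0.21. The CM0 value was -0.88 without CM0 3, -0.43 without CM0 2 and -0.33 with Ctrl 2 and Ctrl 4 both left out. Without Ctrl 2 the CMC value was -0.24. Igtp shares 162 exon bases with the overlapping gene Irgm2, so counts between these 2 genes are uncertain.

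Irgm1, a regulator of the other immunity-related GTPases, had smaller differences with less spread. Irgm1 measured 21, 17.6, 24.5 and 17.8 CPM in CM0 wounds, 19, 19.7, 26.1 and 18.8 CPM in CM1 wounds, 18.9, 19.6, 23.2, 21.3 and 23 CPM in CMA wounds, and 20.2, 21.2, 29.4, 28.7 and 22.9 CPM in CMC wounds, against 21.2, 25.6 and 29.1 CPM in Ctrl wounds. All CM0 and all CMA libraries were below the Ctrl median of 25.6 CPM, and each group overlapped with Ctrl. Its log2 fold change was -0.32 in CM0 (SE 0.13, edgeR adjusted p = 0.946), -0.27 in CM1 (SE 0.13, edgeR adjusted p = 0.706) and -0.25 in CMA (SE 0.13, edgeR adjusted p = 0.733).

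Iigp1, which helps to break up parasite vacuoles, had the widest range of the GTPases, 4.28-fold. Iigp1 measured 13.9, 7.87, 19.9 and 7.87 CPM in CM0 wounds, 7.41, 17.7, 19.6 and 7.06 CPM in CM1 wounds, 7.25, 13.7, 14.9, 12.9 and 10.6 CPM in CMA wounds, and 8.64, 10.7, 13.6, 23.1 and 13.7 CPM in CMC wounds, against 10.9, 14.7 and 30.2 CPM in Ctrl wounds. Ctrl 2 at 30.2 and Ctrl 4 at 26.2 CPM were above every medium library. Its CMC value of -0.40 (SE 0.34, edgeR adjusted p = 0.761) was -0.20 without Ctrl 2, -0.65 without CMC 4 and 0.04 with Ctrl 2 and Ctrl 4 both left out. Its largest difference was in CMA, at -0.63 (SE 0.34, edgeR adjusted p = 0.738). Of the guanylate-binding proteins, which coat and open pathogen vacuoles, Gbp2 and Gbp3 were highest in CMC 4 (26.8 and 15.9 CPM), Gbp5 in Ctrl 2 (7.61 CPM) and Gbp7 in Ctrl 4 (31.1 CPM).

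Cxcl9 and Cxcl10 encode chemokines that attract T cells through CXCR3, and Cxcl10 shares 133 exon bases with Art3 on the opposite strand. Cxcl9 measured 3.29, 2.83, 3.11 and 2.65 CPM in CM0 wounds, 1.48, 2.06, 4.57 and 2.69 CPM in CM1 wounds, 0.983, 2.91, 3.15, 1.44 and 2.16 CPM in CMA wounds, and 2.80, 2.98, 2.33, 3.60 and 4.23 CPM in CMC wounds, against 2.02, 3.63 and 7.49 CPM in Ctrl wounds. In CMA 5 of 5 libraries were below the Ctrl median, with a log2 fold change of -0.87 (SE 0.32, edgeR adjusted p = 0.725), and -0.59 without Ctrl 2. The mean of the media was at -0.52 (SE 0.23, edgeR adjusted p = 0.498), and -0.24 without Ctrl 2. In CM1 the value was -0.54 (SE 0.33, edgeR adjusted p = 0.727), but -0.25 without Ctrl 2, -0.36 without CM1 1 and -0.91 without CM1 3. Cxcl10 was at -0.54 in CMA (SE 0.28, edgeR adjusted p = 0.733) and -0.50 in CMC (SE 0.28, edgeR adjusted p = 0.635), with 5 of 5 libraries below the Ctrl median in each.

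The antigen-processing genes lay close to Ctrl. Psmb8 and Psmb9 encode immunoproteasome subunits and Tap1 a peptide transporter. Psmb8 averaged 20.7 ± 5.64 CPM for CM0, 22.6 ± 6.09 for CM1, 22.2 ± 4.10 for CMA and 23.6 ± 1.42 for CMC, against 22 ± 4.02 CPM in Ctrl (SD, n = 4, 4, 5, 5 and 6). The class median was -0.17 for CM0, 0.03 for CM1, 0.07 for CMA and 0.08 for CMC. Psmb9 and Tap1 overlap by 212 exon bases on opposite strands, and the reads carry no strand. Parp14 measured 81.4, 63.3, 86.4 and 62.1 CPM in CM0 wounds and was at -0.31 there (SE 0.14, edgeR adjusted p = 0.946), with a Ctrl median of 85.2 CPM, and -0.19 without Ctrl 4.

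No member passed the test between the media. The comparisons of CM1, CMA and CMC with CM0, and of CM1, CMA and CMC with each other, called 0 of the 41 members and 0% of all genes tested by edgeR, DESeq2 and limma alike. The member medians were 0.05 for CM1 against CM0, 0.08 for CMA against CM0, 0.11 for CMC against CM0, -0.02 for CM1 against CMA, -0.05 for CM1 against CMC and 0.01 for CMA against CMC. Members higher in the first group numbered 27, 28, 32, 17, 14 and 21 of 41 in that order, beside 50.9%, 50.9%, 49.2%, 49.8%, 50.8% and 49.1% of all genes tested. The sign of the member median turned when 1 library was left out in all of these 6 comparisons. At an unadjusted p under 0.05, 1 member differed in CMA against CM0, beside 3.14% of all genes tested, and 1 in CM1 against CMA, beside 4%. The count was 0 in CM1 against CM0 (2.22% of all genes tested), CMC against CM0 (3.72%), CM1 against CMC (2.71%) and CMA against CMC (6.16%).

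Both were Irf9. Irf9 measured 37.2, 40.9, 41.3, 39.3 and 37.9 CPM in CMA wounds, against 31.1, 30.5, 38.6 and 29.1 CPM in CM0 wounds, a log2 fold change of 0.28 (SE 0.095, edgeR adjusted p = 1.0). In CM1 it measured 32.6, 36.8, 35.2 and 32.6 CPM, below all 5 CMA libraries, a log2 fold change of -0.20 (SE 0.095, edgeR adjusted p = 0.995). Groups without overlap in this comparison held for 1 of 41 members and for 1.06% of all genes tested. Among GTPases, 8 of 8 were higher in CMC than in CM0, with a median of 0.24, which was 0.10 without CMC 4 and 0.37 without CM0 3. Gbp3 was at 0.38 (SE 0.20, edgeR adjusted p = 0.998), with 5 of 5 CMC libraries above the CM0 median. The same class had a median of -0.21 in CMA against CMC, with 7 of 8 lower, and Gbp2 was at -0.35 there (SE 0.20, edgeR adjusted p = 0.795). Without CMC 4 these were -0.07 for the class and -0.21 for Gbp2.

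The classes were then compared by how their genes varied from wound to wound inside the groups, using log2 CPM minus the group mean in 24 libraries. Of 10 pairs of genes tested, 5 passed a Benjamini-Hochberg adjusted permutation p of 0.05. Within the type I-type class, Isg15 and Ifit3 had Pearson r = 0.76 (permutation p = 0.00014, adjusted 0.000467) and Spearman rho = 0.72 (permutation p = 0.00113). Within the GTPases, Igtp and Irgm2 had r = 0.76 (permutation p = 0.00021, adjusted 0.000525) and rho = 0.76 (permutation p = 0.00029), the pair with shared exon bases. With the 2 libraries farthest from the median of the x-axis gene left out, r was 0.86 for Isg15 and Ifit3 and 0.72 for Igtp and Irgm2.

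Irf7 and Irf1 were each set against Isg15 and Igtp. Irf7 and Isg15 had r = 0.76 (permutation p = 0.0001, adjusted 0.000467) and rho = 0.67 (permutation p = 0.00104), and Irf1 and Igtp had r = 0.73 (permutation p = 0.00013, adjusted 0.000467) and rho = 0.73 (permutation p = 0.00028). With 2 libraries left out r was 0.71 and 0.67 for these pairs. The crossed pairs had lower r, at r = 0.28 for Irf7 and Igtp (permutation p = 0.251, adjusted 0.313; rho = 0.23, p = 0.327) and r = 0.17 for Irf1 and Isg15 (permutation p = 0.471, adjusted 0.477; rho = 0.27, p = 0.265). With 2 libraries left out the crossed r were 0.30 and 0.33. With Ctrl 2 and Ctrl 4 left out instead, they were 0.41 for Irf7 and Igtp and 0.21 for Irf1 and Isg15. The r were then 0.70 for Irf7 and Isg15 and 0.69 for Irf1 and Igtp. The differences between these correlations were not tested.

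**Figure D5:**
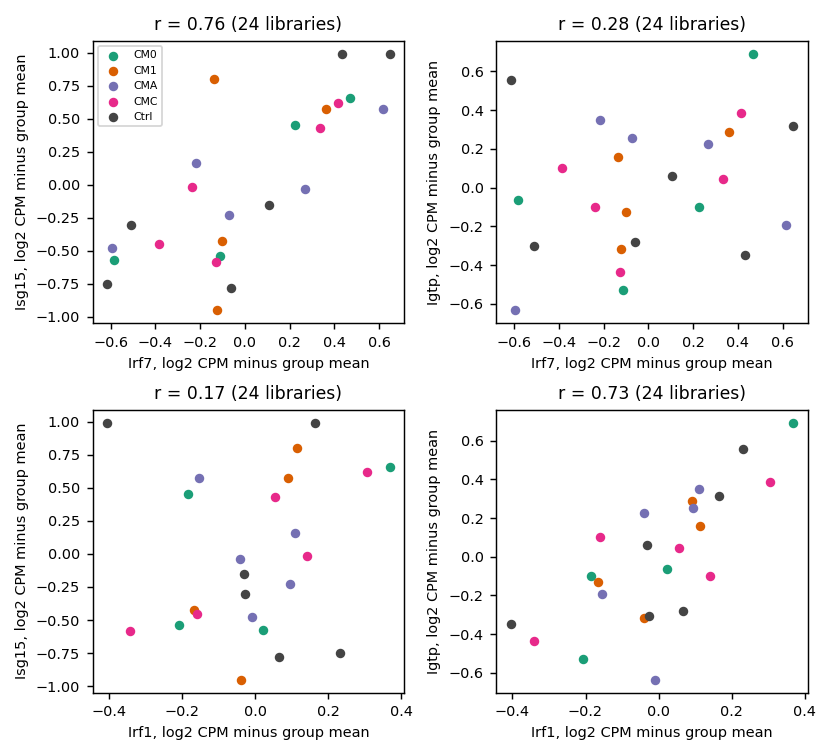
Irf7 (top) or Irf1 (bottom) on the horizontal axis against Isg15 (left) or Igtp (right) on the vertical axis, as log2 CPM minus the group mean, with 1 point per library coloured by group. Points follow a line for Irf7 with Isg15 (r = 0.76) and Irf1 with Igtp (r = 0.73) and scatter for the other pairs (r = 0.28 and 0.17).

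Of the pairs across the classes, Isg15 and Igtp had r = 0.39 (permutation p = 0.0782, adjusted 0.112; rho = 0.42, p = 0.0612), and Ifit3 and Gbp2 had r = 0.44 (permutation p = 0.0405, adjusted 0.0675; rho = 0.44, p = 0.053). Both were larger without the 2 libraries farthest from the median, at 0.49 and 0.47. They then passed the adjusted threshold narrowly (adjusted permutation p = 0.0444 and 0.0493). That test permuted over all libraries kept, not within groups, so the test changed along with the libraries. With Ctrl 2 and Ctrl 4 left out instead, a choice made after seeing the data, the r of these pairs were 0.50 and 0.63. Cxcl9 and Gbp2 had r = 0.51 (permutation p = 0.023, adjusted 0.046; rho = 0.50, p = 0.0268, adjusted 0.0536). The call was lost with ranks, and with r = 0.42 once CMA 1 and Ctrl 2 were left out. Cxcl10 and Isg15 had r = 0.19 (permutation p = 0.477, adjusted 0.477; rho = 0.16, p = 0.527), and 0.28 without 2 libraries.

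Over all pairs, as a description of genes measured in the same libraries, the median r was 0.67 within the 171 type I-type pairs, 0.61 within the 28 GTPase pairs and 0.46 across the 152 pairs between the classes. Without Ctrl 2 and Ctrl 4 the medians were 0.60, 0.65 and 0.53. When each gene was set against the mean of each class without itself, 18 of 19 type I-type genes were nearer their own class, and Oas2 had 0.72 with each class. Of the GTPases 7 of 8 were nearer their own class, and Gbp7 was nearer the type I-type genes (0.75 against 0.70), but had 0.68 with each class without Ctrl 4, and 0.68 with the type I-type genes against 0.78 with the GTPases without Ctrl 2 and Ctrl 4. Of the other members, Irf7, Irf9, Stat2, Ifih1, Ddx58, Dhx58 and Parp14 were nearer the type I-type genes. Without Ctrl 4, Stat2 (0.81 with the type I-type genes against 0.82 with the GTPases) and Parp14 (0.74 against 0.76) were nearer the GTPases instead. Irf1, Zbp1, Cxcl9, Cxcl10, Psmb8, Psmb9 and Tap1 were nearer the GTPases, with r for Irf1 of 0.71 with the GTPases and 0.31 with the type I-type genes.

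Interferon transcripts themselves were nearly absent. Of 20 ligand genes, 10 had 0 counts in all 24 libraries, and 3 counts, taken as the floor, correspond to between 0.25 and 0.413 CPM. Ifnb1 had 1 count in all, in Ctrl 4, and Ifng had 11 counts over 8 libraries, with no more than 2 in any of them and 0 in both Ctrl 2 and Ctrl 4. Differences in either were not detectable at this depth. Ifnk, an epidermal type I interferon, was the only ligand that passed the filter, at a mean of 0.951 CPM, with log2 fold changes from -0.24 in CM0 to 0.45 in CM1 against Ctrl and no call by edgeR (smallest adjusted p 0.806).

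Among the receptor genes, Ifnar1 averaged 111 CPM over all libraries, Ifnar2 39.3, Ifngr1 101 and Ifngr2 45.2 CPM. None of 6 receptor genes was called in any comparison by edgeR, and the largest log2 fold changes against Ctrl of these 4 genes were 0.27 for Ifnar2 (SE 0.11, edgeR adjusted p = 0.559) and 0.225 for Ifngr1 (SE 0.097, edgeR adjusted p = 0.570), both in CMC. Of 18 signalling genes, 14 were lower in CM0 than in Ctrl, 9 in CM1, 12 in CMA and 6 in CMC, with none called. The shares of all genes tested that were lower were 52.6%, 51.3%, 53.3% and 51.6% in that order. Socs1, an inhibitor induced by interferon gamma, was highest in Ctrl 2 at 6.32 CPM and was at -0.46 in CM0 (SE 0.19, edgeR adjusted p = 0.946).

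Of 55 further interferon-induced genes that are no members, 52 were tested and none was called by edgeR in any comparison. They were lower than Ctrl for 44 of 52 in CM0 (median -0.16), 34 in CM1 (-0.04), 36 in CMA (-0.09), 25 in CMC (0.02) and 37 for the mean of the media (-0.08). Of all genes tested, 52.6%, 51.3%, 53.3%, 51.6% and 52.9% were lower, in the same order.

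Among 18937 other tested genes, those whose levels varied most like the mean of the members, in log2 CPM minus the group mean over 24 libraries, were named by rank. Rnf213, an interferon-induced ubiquitin ligase, had r = 0.94 (0.92 without Ctrl 4) and measured 429 CPM in Ctrl 4 and 195 CPM in CM0 4. It was followed by Gm4951 (0.86), Dtx3l (0.85), Ifi35 (0.84), Ifi203 (0.83), Ifi213 (0.83), Parp9 (0.82), Ifi47 (0.82), Phf11d (0.81) and Gm12250 (0.80). At the opposite end were A730056A06Rik (-0.85), the phosphodiesterase gene Pde4d (-0.75), Zmynd11 (-0.72), Lancl3 (-0.71) and Erc2 (-0.71).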

How the data were processed

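RNA from 24 wound biopsies was sequenced after ribosomal RNA depletion with a kit that does not mark strand. The deposited values are raw read counts per gene, and per the submitters' processing notes the tools were bcl2fastq 2.17, FastQC, cutadapt, STAR, featureCounts and DESeq2 with GRCm38. The sources used here do not give the annotation release, the role of each tool or how reads over more than 1 gene were counted.

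Ensembl identifiers were given symbols from an M21 table (54165 of 54232 matched). edgeR 4.0.16 in R 4.3.3 (filterByExpr, TMM, robust quasi-likelihood F-tests, 1 mean per group over all 24 libraries) was fitted to 18978 genes, with Benjamini-Hochberg adjustment over all of them. CPM used TMM-scaled totals, and scores are mean log2 CPM with a prior count of 2. Correlations used log2 CPM minus the group mean and 100000 two-sided permutations within groups, adjusted over 10 pairs. Their alternatives without centring or with 2 libraries left out used fewer permutations, over all libraries kept. The fit was also run on simulated counts in which each gene varied independently, and no result above rests on that run. No 2 libraries were identical.

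The members, classes and lists were chosen with earlier results of these data known. A rule picked the 2 type I-type genes, 2 GTPases and 2 other members with the smallest p in each comparison with Ctrl. Between media it picked the 2 members with the smallest p. Not all of these are given above. Left out for the mean of the media were Oasl1 (-0.58), Irgm1 (-0.22) and Parp14 (-0.21), and in CM1 Parp14 (-0.24). Between media, only Irf9 in CMA against CM0 and CM1 against CMA, Gbp3 in CMC against CM0 and Gbp2 in CMA against CMC are given. The values of Ifnk, and those of Bst2 against Ctrl and Iigp1 in CMA, were chosen after their values were seen. Alternatives were limma 3.58.1 with voom and quality weights, DESeq2 1.42.0, other scalings, no filter, the compared groups alone and each library left out, and, after seeing the data, Ctrl 2 and Ctrl 4 left out together. Counts per library limit precision for the rarest members.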

Additional observations from a re-analysis of the deposited data

Results flagged for a closer look

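Within groups of 4 to 6 libraries, 240 sets of values were examined for a single library far from the others, by its gap to the nearest library over the range of the group (Dixon's ratio). Chance flags about 1 in 20 such sets, and 13 were flagged. Ctrl 4 was high in 5 of them, with ratios of 0.707 for Ifit3, 0.791 for Stat2, 0.834 for the score of all members, 0.659 for the type I-type score and 0.734 for the factor score. CM1 3 was high in 3, with ratios of 0.928 for Irf7, 0.857 for Irgm1 and 0.908 for Cxcl10. CMA 3 was high for Ifit3 (0.728) and Mx1 (0.738), and CMC 4 was high for Gbp7 (0.769). CMC 5 was low for Oasl1 (0.771), and CMA 1 was low for the GTPase score (0.803). The cause of these values was not tested.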

How the results depend on the processing

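No member passed an adjusted p of 0.05 under any of 31 settings, and 1283 of 1284 named log2 fold changes kept their direction. The exception was Iigp1 in CMC against Ctrl, at 0.043 without Ctrl 2 and Ctrl 4. Genes called by edgeR numbered 0, but DESeq2 called 1 in CM0, 1 in CM1, 4 in CMC, 1 for the mean of the media and 1 for any difference between groups. Leaving out 1 library gave 0 to 1 genes in CM0 and 0 to 5 for the mean of the media, the highest without CM0 2 and without Ctrl 2, and leaving out Ctrl 2 and Ctrl 4 together gave 4 for the mean of the media. The correlation of Ifit3 and Gbp2 passed the threshold without centring on group means (r = 0.46) and with the 2 farthest libraries left out (r = 0.47), as did Isg15 and Igtp with 2 left out (r = 0.49), while Cxcl9 and Gbp2 no longer passed (r = 0.42), nor did they with ranks (rho = 0.50, adjusted permutation p = 0.0536). The settings without centring and with 2 libraries left out permuted over all libraries kept, not within groups. For these changes the cause was not tested. The type I-type median for the mean of the media, -0.43, was between -0.54 without Ctrl 2 and -0.15 without Ctrl 4 when 1 library was left out. No paired analysis was possible because the labels give no replicate numbers that are shared between groups.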
